A study of Saccharomyces cerevisiae with 12 samples.

Results

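The 3 libraries of oxidized and the 3 libraries of reduced yeast cells harvested after 72 hr of growth were compared across 4776 of the 6645 genes in the deposited table, those whose mean over all 12 libraries of the series was 20 PPM or more. PPM is the number of reads at the 3′ end of a gene, scaled to a library total of 1000000 reads. The cells were haploid BY4741 (leu2, his3, met15 and ura3 mutant) carrying a plasmid for Grx1-roGFP2, a green fluorescent protein fused to a glutaredoxin whose excitation shifts with how oxidized cytosolic glutathione is. All groups shared this strain, the sensor, a glucose medium with casamino acids and ammonium sulfate, aerobic growth at a constant temperature, and a gate that left out dead cells by propidium iodide. Cells of 1 culture age were sorted by the ratio of the sensor's fluorescence at its 2 excitation wavelengths into an oxidized and a reduced subpopulation, so the groups differ in the measured redox state and in whatever accompanied it at the time of the sort. The other 6 libraries of the series are the same sort at 48 hr, and they are used here for the spread between replicates and where the 72 hr difference is set beside that at 48 hr. In bulk RNA of a sorted population, fewer cells that express a gene and less RNA per cell cannot be told apart.

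Saccharomyces cerevisiae first ferments glucose to ethanol and then, after the diauxic shift, respires the ethanol and acetate it made. Use of these carbon sources needs the glyoxylate cycle and gluconeogenesis, peroxisomes and the carnitine shuttle, whose genes glucose represses. Cells that have used up their nutrients enter stationary phase, in which heat shock proteins and small stress proteins accumulate. Scarce or poor nitrogen sources lead to expression of a separate set of permease and catabolic genes, driven by the GATA factors Gln3 and Gat1.

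The 72 hr libraries held 138631 to 201379 reads, 1 read being worth 4.97 to 7.21 PPM, and 5488 to 5707 genes above 0. Pearson correlations of log2(PPM + 10) were 0.890 to 0.911 between libraries of the same group and 0.841 to 0.870 between oxidized and reduced libraries. Reduced replicate 3 stood somewhat apart. Its reads differed from those of the other reduced libraries by a chi-square per degree of freedom of 2.683 and 2.798 across genes, where the other pairs within a group had 1.423 to 1.671, and its correlations with the oxidized libraries (0.865 to 0.870) were above those of the other reduced libraries (0.841 to 0.855), while it still correlated best with its own group (0.898 and 0.911). Genes that identify the strain were read as a check of the labels. The a-factor gene MFA1 had 634 ± 75.7 PPM (SD, n = 3) in the oxidized and 472 ± 42.1 PPM (SD, n = 3) in the reduced subpopulation. MFA2, its second copy, had 504 ± 86.5 PPM and 493 ± 58.1 PPM (SD, n = 3), and the α-factor gene MF(ALPHA)1 49.2 ± 7.36 PPM and 45.5 ± 22.1 PPM (SD, n = 3). The a-cell gene STE2, the α-factor receptor, had 189 ± 20.9 PPM and 124 ± 21.4 PPM (SD, n = 3), and STE3, the a-factor receptor of α cells, 24.8 ± 6.19 PPM and 9.42 ± 2.15 PPM (SD, n = 3). The a-specific genes were thus the more abundant ones in both groups, although the study's methods give the mating type as MATα. None of the 7 a-specific and pheromone transcripts nor the 2 α-specific ones passed limma's adjusted p (3 and 0 at an unadjusted p under 0.05). Of the genotype markers, URA3 and HIS3 were read in all 6 libraries, although the strain is listed as ura3 and his3 mutant. LEU2 and MET17 were below the level filter. The study's methods describe selection on media without uracil for microscopy. The source of the URA3 and HIS3 reads was not tested.

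At 72 hr, 459 of the 4776 transcripts (9.61%) passed the threshold of 0.05 on limma's adjusted p, 232 of them (4.86%) higher in the oxidized and 227 (4.75%) higher in the reduced subpopulation. Among these, 132 were at least 2-fold higher in oxidized and 148 at least 2-fold higher in reduced cells on the log2(PPM + 10) scale, on which the changes of weak transcripts are understated. The plot of level against difference shows both directions over the whole range of levels. All 3 oxidized libraries lay above or below all 3 reduced libraries for 1244 transcripts (26.0%), and for 222 of the transcripts called higher in oxidized and 222 of those called higher in reduced cells. Over all transcripts the median log2 fold change was -0.11. Rescaling the libraries by median-of-ratios size factors moved this median to -0.04 and the split of the calls to 261 higher in oxidized cells and 186 in reduced cells, so the equal split of the 2 directions depends on the scaling, while all 459 calls kept their direction under each alternative in which they were tested. Without reduced replicate 3, the library that stood apart, 429 transcripts were called, 222 higher in oxidized cells and 207 in reduced cells, of which 377 were among the 459. Without reduced replicate 1 or 2 the calls higher in reduced cells numbered 148 and 134.

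**Figure D1:**
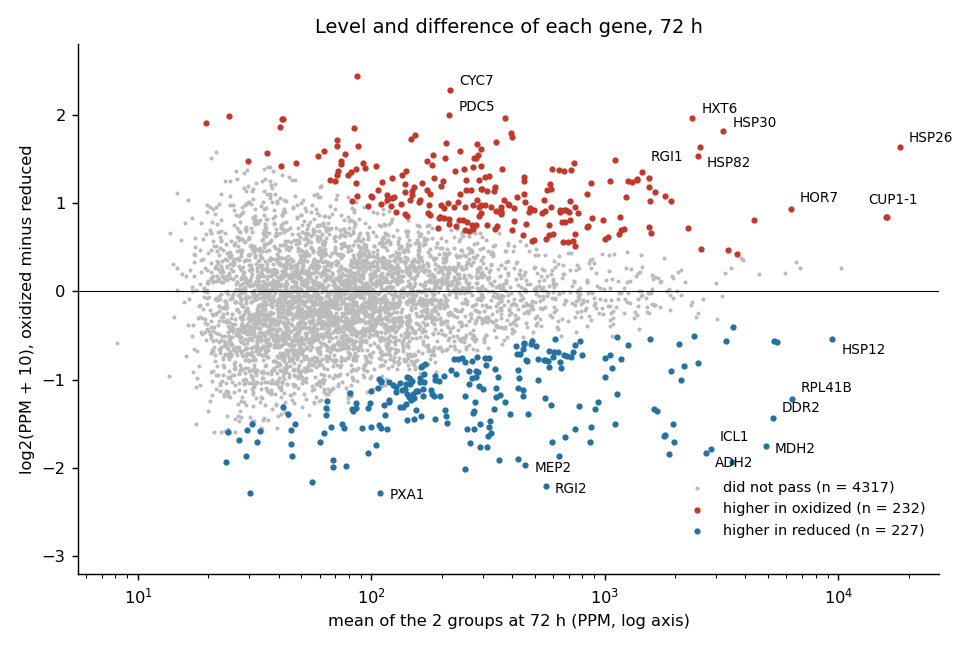
Each point is 1 of 4776 genes, with the mean of both groups at 72 hr in PPM on a log axis and the oxidized minus reduced difference of log2(PPM + 10). Red points (232) were called higher in oxidized cells, blue points (227) higher in reduced cells and grey points (4317) did not pass, and calls are seen over nearly the whole range of levels.

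The most abundant transcripts themselves differed. HSP26, a small heat shock protein that binds unfolding proteins, was the most abundant transcript of the oxidized subpopulation, with 27892, 26646 and 28531 PPM, and had 8869, 9974 and 8002 PPM in the reduced subpopulation (log2 fold change 1.63, standard error 0.12, limma adjusted p = 2.9e-16). The counting window of HSP26 overlaps by 215 bp that of YBR072C-A on the opposite strand. HSP12, a small membrane-protecting stress protein, had 6732, 7985 and 8129 PPM in oxidized and 12851, 12229 and 8599 PPM in reduced cells (log2 fold change -0.54, standard error 0.13, limma adjusted p = 0.0024), and its call was lost without reduced replicate 1 (limma adjusted p = 0.057). Thus these small stress proteins, both abundant in either group, changed in opposite directions. The copper metallothionein copies CUP1-1 and CUP1-2, which are near identical so that their reads cannot be assigned to 1 copy, had 19137 to 21780 PPM each in the oxidized libraries and 9489 to 13126 PPM in the reduced ones (log2 fold changes 0.84 and 0.85, limma adjusted p = 2e-07 for both). TDH3, a glyceraldehyde-3-phosphate dehydrogenase of glycolysis and the fourth most abundant transcript in both groups, did not pass (log2 fold change 0.27, standard error 0.13, limma adjusted p = 0.2).

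Genes for the use of ethanol and acetate were higher in reduced cells. Of 16 transcripts for the glyoxylate cycle, gluconeogenesis and related carbon use, 14 were called higher in reduced cells and 0 higher in oxidized cells (also 0 at an unadjusted p under 0.05 in limma), against 4.75% and 4.86% of all genes, with a median log2 fold change of -1.67 beside -0.11 over all genes. All 16 had their 3 reduced libraries above their 3 oxidized libraries. Among all genes the libraries of the groups did not overlap, in either direction, for 26.0%. Summed over the list, the oxidized libraries held 10388, 12364 and 11047 PPM and the reduced libraries 37437, 38001 and 27538 PPM. Without reduced replicate 3 the calls were again 14. That library was the lowest of its group and still more than 2-fold above each oxidized library. Isocitrate lyase and malate synthase are the enzymes particular to the glyoxylate cycle. ICL1 (YER065C, chromosome V, 285241 to 286914 in R64) had 1186, 1342 and 1262 PPM in oxidized and 5279, 4644 and 3364 PPM in reduced cells (log2 fold change -1.78, standard error 0.16, limma adjusted p = 1.1e-12). MLS1 (chromosome XIV, 406358 to 408022) had 816, 894 and 737 PPM in oxidized and 3173, 3138 and 2530.1 PPM in reduced cells (log2 fold change -1.84, standard error 0.17, limma adjusted p = 1.8e-12). For both genes the groups were far apart and reduced replicate 3 was again the lowest of its group. Gluconeogenesis is set by fructose-1,6-bisphosphatase (FBP1) and phosphoenolpyruvate carboxykinase (PCK1). FBP1 (chromosome XII, 873746 to 874792) had 293, 274 and 242 PPM in oxidized and 1068, 1060.3 and 896 PPM in reduced cells (log2 fold change -1.86, standard error 0.19, limma adjusted p = 5.7e-11), and PCK1 had a log2 fold change of -1.63 (limma adjusted p = 1.1e-09). MDH2, the cytosolic malate dehydrogenase that feeds gluconeogenesis, was the most abundant member and had 2212, 2416 and 2016 PPM in oxidized and 8064, 8546 and 6024 PPM in reduced cells (log2 fold change -1.75, standard error 0.15, limma adjusted p = 3.1e-13).

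Genes at the entry of these substrates behaved alike. ADH2 (chromosome XIII, 873291 to 874337), the alcohol dehydrogenase that oxidizes ethanol, had 1144, 1464 and 937 PPM in oxidized and 4737, 5054 and 2992 PPM in reduced cells (log2 fold change -1.83, standard error 0.17, limma adjusted p = 1.6e-12), whereas the fermentative ADH1 did not pass (log2 fold change -0.46, standard error 0.17, limma adjusted p = 0.084). ACS1, an acetyl-CoA synthetase, had a log2 fold change of -1.56, ALD4, the mitochondrial acetaldehyde dehydrogenase, of -0.86, and JEN1, the lactate and pyruvate permease, of -1.12, all called higher in reduced cells, that of ALD4 not without oxidized replicate 1 (limma adjusted p = 0.063). ADY2, an acetate permease, had 809, 967 and 996 PPM in oxidized and 3228, 3252 and 2632 PPM in reduced cells (log2 fold change -1.70, standard error 0.15, limma adjusted p = 1.1e-12). SFC1 carries succinate into mitochondria in exchange for fumarate, and had 335, 498 and 342 PPM in oxidized and 1465, 1682 and 851 PPM in reduced cells (log2 fold change -1.71, standard error 0.20, limma adjusted p = 3.6e-09). IDP2, the cytosolic NADP-dependent isocitrate dehydrogenase and thus a source of NADPH, had 160.5, 188 and 171 PPM in oxidized and 849, 579.6 and 609 PPM in reduced cells (log2 fold change -1.89, standard error 0.26, limma adjusted p = 8.9e-08), while the mitochondrial IDP1 did not pass (log2 fold change 0.19, standard error 0.31, limma adjusted p = 0.8). The 2 members not called were DLD1 (log2 fold change -0.65, standard error 0.24, limma adjusted p = 0.082) and CYB2, both lactate dehydrogenases. Of the regulators of glucose repression, 3 of 24 (12.5%) were called higher in oxidized cells and 2 (8.33%) in reduced cells, beside 4.86% and 4.75% of all genes. The count in reduced cells was 0 without reduced replicate 2. SIP4, an activator of gluconeogenic genes, had 41.9, 57.7 and 64.8 PPM in oxidized and 164, 205 and 169 PPM in reduced cells (log2 fold change -1.56, standard error 0.41, limma adjusted p = 0.0064), a call lost without reduced replicate 2 (limma adjusted p = 0.052).

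**Figure D2:**
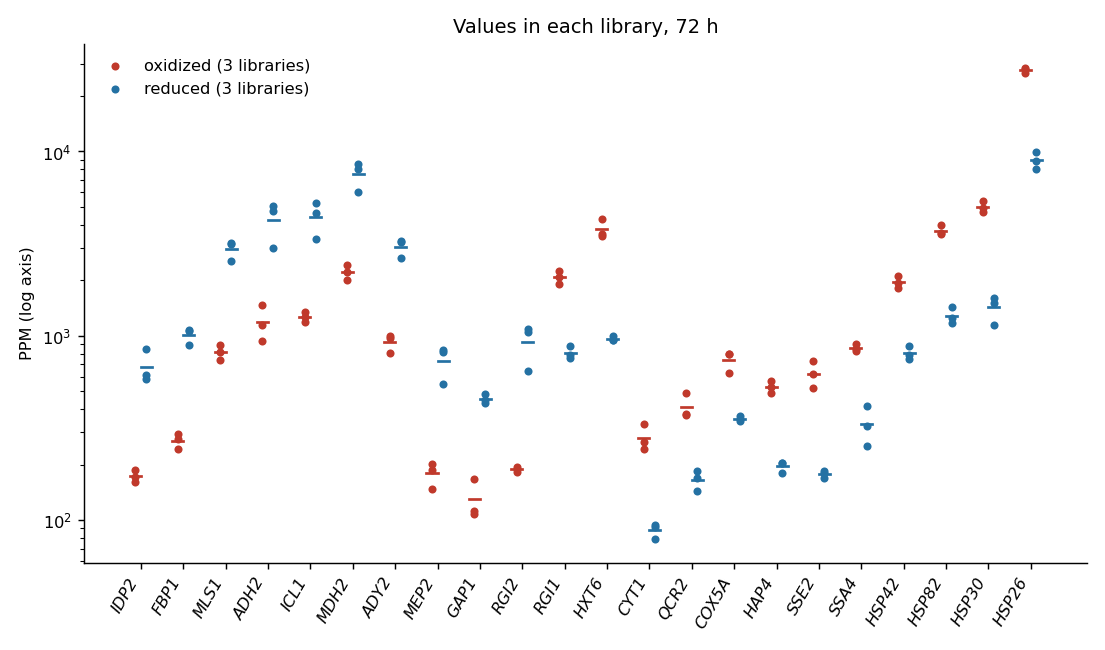
PPM on a log axis of 22 genes in each of the 3 oxidized (red) and 3 reduced (blue) libraries of 72 hr, with a bar at the mean of each group. From IDP2 to RGI2 the reduced libraries lie above the oxidized ones, from RGI1 to HSP26 below them, and no gene shown has overlapping groups, as the genes were picked among the calls.

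Genes that move and burn fatty acids and acetyl units lay on the same side. The carnitine shuttle carries acetyl groups from the cytosol and peroxisome to mitochondria. Of its 5 transcripts 4 (80.0%) were called, all higher in reduced cells (median log2 fold change -1.39), beside 4.75% of all genes. CAT2, the carnitine acetyltransferase of peroxisomes and mitochondria, had 265, 353 and 342 PPM in oxidized and 1053, 1279 and 778 PPM in reduced cells (log2 fold change -1.65, standard error 0.20, limma adjusted p = 8.8e-09). CRC1, the mitochondrial carrier, had 223, 245 and 295 PPM and 690.2, 785 and 580.4 PPM (log2 fold change -1.39, standard error 0.23, limma adjusted p = 7.9e-06), YAT2 293, 375 and 342 PPM and 894, 975 and 654 PPM (log2 fold change -1.28, standard error 0.21, limma adjusted p = 4.7e-06), and YAT1 48.8, 108 and 106 PPM and 214, 240.3 and 259 PPM (log2 fold change -1.41, standard error 0.31, limma adjusted p = 0.00086). The windows of CAT2, CRC1 and YAT1 each overlap one on the opposite strand, by 288, 112 and 320 bp. AGP2, a plasma membrane regulator of carnitine uptake, did not pass (log2 fold change -0.18, standard error 0.33, limma adjusted p = 0.82). Of 19 tested genes of peroxisomal β-oxidation, 11 (57.9%) were called higher in reduced cells and 1 (5.26%) higher in oxidized cells (median -1.16). Over all genes these shares were 4.75% and 4.86%, so the share in oxidized cells was near that of all genes. PXA1, a subunit of the transporter that brings long-chain fatty acids into the peroxisome, had 34.9, 14.4 and 47.2 PPM in oxidized and 174, 233 and 152 PPM in reduced cells (log2 fold change -2.28, standard error 0.44, limma adjusted p = 0.00011), whereas its partner PXA2 had a log2 fold change of -0.05 and did not pass. PEX11, which divides peroxisomes, had 160.5, 173 and 112 PPM and 402, 551 and 361 PPM (log2 fold change -1.50, standard error 0.24, limma adjusted p = 5.9e-06). POX1, the acyl-CoA oxidase, and POT1, the thiolase, had log2 fold changes of -1.36 and -1.49, and CTA1, the peroxisomal catalase, had 97.7, 101 and 136 PPM and 333, 375 and 203 PPM (log2 fold change -1.34, standard error 0.27, limma adjusted p = 0.00022). The exception was FAA1, a fatty acid activating enzyme of the cytosol, which was higher in oxidized cells (log2 fold change 0.98, standard error 0.23, limma adjusted p = 0.0025, lost without reduced replicate 2 with an adjusted p of 0.1). Of 26 peroxisome biogenesis transcripts 1 was called, higher in reduced cells (3.85%, beside 4.75% of all genes), and 0 without oxidized replicate 1 or reduced replicate 2 or 3.

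Permeases and enzymes for nitrogen were also higher in reduced cells. All 5 called members of the 6 ammonium permease and ammonia export genes were higher in reduced cells (83.3% of the 6, median -1.60). So were all 8 called members of 23 allantoin, urea and nitrogen permease genes (34.8% of the 23, median -0.76), beside 4.75% of all genes. ADY2 is counted here and among the genes of acetate use. The 5 ammonium calls were 3 without oxidized replicate 1 or 3 or any of the reduced libraries, and the 8 calls of the other list were 5 without oxidized replicate 1 or reduced replicate 1 or 2. MEP2 (chromosome XIV, 357453 to 358952), the high-affinity ammonium permease, had 202, 188 and 147 PPM in oxidized and 839, 813 and 547 PPM in reduced cells (log2 fold change -1.96, standard error 0.31, limma adjusted p = 3.6e-06). Its paralogs MEP1 and MEP3 passed narrowly (limma adjusted p = 0.047 and 0.047) and were lost under most alternatives. ATO3, an ammonia export protein, had 76.7, 137 and 224 PPM and 511, 523 and 411 PPM (log2 fold change -1.76, standard error 0.27, limma adjusted p = 2e-06), while ATO2 did not pass (log2 fold change -0.31, standard error 0.36, limma adjusted p = 0.7). DAL3 (chromosome IX, 415030 to 415617), ureidoglycolate lyase of allantoin breakdown, had 90.7, 86.6 and 100.2 PPM in oxidized and 497, 459 and 282 PPM in reduced cells (log2 fold change -2.01, standard error 0.31, limma adjusted p = 1.8e-06). GAP1 (chromosome XI, 515063 to 516871), the general amino acid permease, had 167, 108 and 112 PPM and 447, 481 and 434 PPM (log2 fold change -1.76, standard error 0.26, limma adjusted p = 1.1e-06). In each of these 3 genes the groups were well separated. Of the regulators of these genes, GAT1, a GATA activator, had a log2 fold change of -1.25 and passed (lost without oxidized replicate 2 or reduced replicate 1 or 2, limma adjusted p = 0.052 to 0.069), and GLN3 and DAL80 had -0.76 and -0.62 and did not pass.

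The GATA factors Gln3 and Gat1 bind GATAAG. This motif, searched on both strands of the 400 bases from 500 to 101 before the start codon in the RefSeq genome R64, was in 9 of the 13 promoters (69.2%) of the nitrogen genes called higher in reduced cells and in 18.4% of the 4676 promoters of genes tested. It was in 26.5% of the 223 promoters of all genes called higher in reduced cells. List members that were not called had no separate count, so a high share may belong to the list and not to the calls. The same holds for the lists below. A match describes the letters and is no bound site. Stretches of 150 bases that hold matches are shown for the 3 genes above, 5′ to 3′ on the strand of the gene, with the motif or its reverse complement in capitals.
DAL3, chrIX:415718-415867, minus strand: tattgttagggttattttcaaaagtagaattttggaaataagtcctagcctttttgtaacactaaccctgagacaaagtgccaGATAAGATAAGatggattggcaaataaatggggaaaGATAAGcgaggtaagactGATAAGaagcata
MEP2, chrXIV:356988-357137, plus strand: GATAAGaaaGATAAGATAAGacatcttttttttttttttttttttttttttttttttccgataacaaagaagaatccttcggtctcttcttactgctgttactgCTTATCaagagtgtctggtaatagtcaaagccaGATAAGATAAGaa
GAP1, chrXI:514677-514826, plus strand: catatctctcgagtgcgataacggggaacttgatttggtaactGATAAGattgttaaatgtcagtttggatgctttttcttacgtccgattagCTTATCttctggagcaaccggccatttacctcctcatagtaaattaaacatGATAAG
DAL3 held 4 matches in its stretch, MEP2 6 and GAP1 3. ATO3, whose change was close to that of GAP1, holds no match in the bases searched.

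Further calls higher in reduced cells came from smaller groups. RGI2, which is needed for growth on respired carbon sources, had 188, 195 and 183 PPM in oxidized and 1053, 1082 and 642 PPM in reduced cells (log2 fold change -2.20, standard error 0.22, limma adjusted p = 4.7e-11). FMP16, a mitochondrial protein, had 893, 923 and 760.4 PPM and 2746, 3315 and 2102 PPM (log2 fold change -1.63, standard error 0.16, limma adjusted p = 8.1e-12), and DDR2, a multistress gene, 2246, 3167 and 3142 PPM and 7940.3, 8553 and 6469 PPM (log2 fold change -1.43, standard error 0.14, limma adjusted p = 7.3e-12). NCE103, the carbonic anhydrase, had 893, 916 and 961 PPM in oxidized and 3084, 2283 and 1922 PPM in reduced cells (log2 fold change -1.36, standard error 0.17, limma adjusted p = 2e-08), with all 3 reduced libraries at least about 2-fold above the oxidized ones. For lipids, 5 of 22 fatty acid and phospholipid genes (22.7%) and 5 of 30 ergosterol genes (16.7%) were called, all higher in reduced cells, beside 4.75% of all genes. The first count was 4 or 5 with a library left out, but the ergosterol count was 1 without reduced replicate 1 or 2, 2 without oxidized replicate 2 and 3 without oxidized replicate 1 or 3. OLE1, the fatty acid desaturase, had 453, 534 and 666 PPM and 1380.5, 1477 and 1116 PPM (log2 fold change -1.26, standard error 0.19, limma adjusted p = 1.2e-06), FAS1, a fatty acid synthase subunit, 914, 988 and 707 PPM and 1614, 1449 and 1347 PPM (log2 fold change -0.76, standard error 0.16, limma adjusted p = 0.00063), and ERG25, a sterol methyl oxidase, 426, 325 and 248 PPM and 834, 919 and 580.4 PPM (log2 fold change -1.21, standard error 0.22, limma adjusted p = 6.9e-05). The call of FAS1 and that of OLE1 held under each alternative run. Of 43 proteasome transcripts 3 were called higher in reduced cells (6.98%, near the 4.75% of all genes), and 1 without oxidized replicate 2 or reduced replicate 2. The call that remained was BLM10, a proteasome activator (log2 fold change -1.18, standard error 0.24, limma adjusted p = 0.00029). Of 16 sporulation genes listed only 4 passed the level filter, and 2 of these were called higher in reduced cells. SPS100, a spore wall gene also known from stationary cells, had 446, 296 and 607 PPM and 1549, 1371 and 964 PPM (log2 fold change -1.54, standard error 0.20, limma adjusted p = 2.3e-08), and IME1, the initiator of meiosis, was weak and passed (log2 fold change -1.22, standard error 0.34, limma adjusted p = 0.013), but not without oxidized replicate 1 or reduced replicate 1 (limma adjusted p = 0.059 and 0.12). The summed level of all 16 listed genes, tested or not, was 462 to 766 PPM in the oxidized and 1251 to 1937 PPM in the reduced libraries.

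Respiratory chain genes lay on the opposite side to the genes of ethanol use. The cytochrome bc1 complex passes electrons from ubiquinol to cytochrome c. Of its 9 nuclear genes tested 8 (88.9%) were called, all higher in oxidized cells (median log2 fold change 0.96), beside 4.86% of all genes. CYT1, cytochrome c1, had 265, 332 and 242 PPM in oxidized and 94.3, 91.9 and 78.9 PPM in reduced cells (log2 fold change 1.55, standard error 0.28, limma adjusted p = 3.8e-05). QCR2 had 377, 491 and 371 PPM and 144, 184 and 169 PPM (log2 fold change 1.26, standard error 0.22, limma adjusted p = 2.6e-05), and QCR10 412, 267 and 413 PPM and 159, 141 and 129.6 PPM (log2 fold change 1.26, standard error 0.22, limma adjusted p = 1.6e-05). The Rieske protein gene RIP1 had a log2 fold change of 0.96 and QCR7 of 1.02, and QCR8 was the member that did not pass (log2 fold change 0.36, standard error 0.16, limma adjusted p = 0.16). Summed over the 10 genes listed for the complex, tested or not, the oxidized libraries held 6983, 7495 and 7557 PPM and the reduced libraries 4122, 4411 and 3736 PPM. Of 9 cytochrome c oxidase transcripts, 5 (55.6%) were called higher in oxidized cells and 1 (11.1%) in reduced cells (median 0.65). Over all genes these shares were 4.86% and 4.75%. COX5A had 628, 801 and 796 PPM in oxidized and 353, 368 and 344 PPM in reduced cells (log2 fold change 1.04, standard error 0.18, limma adjusted p = 3.2e-05), and COX13 935, 923 and 890.1 PPM and 477, 544 and 439.5 PPM (log2 fold change 0.90, standard error 0.17, limma adjusted p = 5.9e-05). The exception, COX26, had 181, 202 and 271 PPM and 487, 650.3 and 456 PPM (log2 fold change -1.25, standard error 0.21, limma adjusted p = 1.7e-05), and its window overlaps that of TRM1 on the opposite strand by 66 bp. Of 16 ATP synthase transcripts, 8 were called higher in oxidized cells, led by ATP16 (log2 fold change 0.94, standard error 0.20, limma adjusted p = 0.00077) and ATP14 (log2 fold change 0.90, standard error 0.17, limma adjusted p = 8.7e-05), and 1, the stabilizing factor STF2, higher in reduced cells (log2 fold change -0.57, standard error 0.13, limma adjusted p = 0.002). For the tricarboxylic acid cycle, by comparison, 2 of 17 transcripts were called in each direction (11.8%, beside 4.86% and 4.75% of all genes), with 1 to 3 higher in oxidized cells and 0 to 2 in reduced cells when a library was left out, the 0 without oxidized replicate 2.

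Genes of activators of respiration were called as well. HAP4, the limiting activator subunit of the Hap2/3/4/5 complex, had 488, 527 and 566 PPM in oxidized and 179, 205 and 203 PPM in reduced cells (log2 fold change 1.39, standard error 0.21, limma adjusted p = 8.6e-07). HAP1, a heme-dependent activator, had 600.0, 534 and 725 PPM and 273, 304 and 270.5 PPM (log2 fold change 1.10, standard error 0.19, limma adjusted p = 2e-05). For both the groups did not overlap. Isoforms known from low oxygen were higher in the same cells. CYC7, the minor cytochrome c, had 230.2, 469 and 407 PPM in oxidized and 94.3, 56.5 and 50.7 PPM in reduced cells (log2 fold change 2.28, standard error 0.26, limma adjusted p = 9.4e-10), the largest change in this direction among transcripts with a mean over 200 PPM, and its aerobic paralog CYC1 had a log2 fold change of 0.62 (limma adjusted p = 0.0065, lost without reduced replicate 1 at 0.11). COX5A and its hypoxic paralog COX5B had log2 fold changes of 1.04 and 0.98, and the difference between the paralogs was not tested. Of 14 hypoxic genes in all, 2 (14.3%) were called higher in oxidized cells and 3 (21.4%) in reduced cells, beside 4.86% and 4.75% of all genes.

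The Hap2/3/4/5 complex binds CCAAT. This motif was in 19 of the 21 promoters (90.5%) of the bc1, oxidase and ATP synthase genes called higher in oxidized cells and in 55.6% of all promoters. In the glyoxylate and gluconeogenesis genes called higher in reduced cells it was in 12 of 14 (85.7%), so that its presence did not go with 1 direction. Stretches are shown for the 3 largest changes among the respiratory genes that hold the motif, with CCAAT or ATTGG in capitals. CYT1, whose change was larger, holds no match in the bases searched.
QCR10, chrVIII:107552-107701, plus strand: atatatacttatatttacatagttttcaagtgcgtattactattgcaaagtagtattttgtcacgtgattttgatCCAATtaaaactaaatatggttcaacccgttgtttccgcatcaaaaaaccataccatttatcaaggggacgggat
QCR2, chrXVI:919121-919270, plus strand: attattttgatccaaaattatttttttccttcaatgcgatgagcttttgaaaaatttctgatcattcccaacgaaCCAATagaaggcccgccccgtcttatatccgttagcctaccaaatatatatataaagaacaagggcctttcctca
COX5A, chrXIV:531475-531624, plus strand: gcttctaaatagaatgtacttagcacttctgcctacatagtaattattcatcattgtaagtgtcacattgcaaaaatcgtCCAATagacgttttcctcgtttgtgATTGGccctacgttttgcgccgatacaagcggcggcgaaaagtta

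Chaperones formed the other large block of the oxidized subpopulation. Of 20 cytosolic Hsp70, Hsp110 and co-chaperone genes 7 were called, of 12 Hsp90 genes 4, of 10 disaggregase and small heat shock genes 5, and of 10 mitochondrial chaperone genes 5, all 21 of them higher in oxidized cells. These were 40.4% of the 52 genes tested, beside 4.86% of all genes. Stress-inducible members were among the largest changes. HSP82, the inducible Hsp90, had 3998, 3571 and 3602 PPM in oxidized and 1167, 1428 and 1251 PPM in reduced cells (log2 fold change 1.53, standard error 0.13, limma adjusted p = 5.5e-13), whereas the constitutive HSC82 did not pass (log2 fold change 0.12, standard error 0.21, limma adjusted p = 0.8). SSA4, an inducible Hsp70, had 907, 851 and 825 PPM and 323, 417 and 254 PPM (log2 fold change 1.38, standard error 0.19, limma adjusted p = 1.7e-07), SSA3 had a log2 fold change of 1.25, and the mostly constitutive SSA1 (0.42) and SSA2 (0.52) did not pass (limma adjusted p = 0.06 and 0.15). SSE2, a nucleotide exchange factor of the Hsp110 class, had 523, 729 and 619 PPM in oxidized and 184, 169.7 and 180.3 PPM in reduced cells (log2 fold change 1.74, standard error 0.21, limma adjusted p = 5.4e-09), and its window overlaps that of PEX32 on the opposite strand by 98 bp. FES1, another exchange factor, had 935, 1096 and 1085 PPM and 452, 403 and 338 PPM (log2 fold change 1.37, standard error 0.17, limma adjusted p = 6e-09). Both exchange factors were thus called in the same direction as the inducible Hsp70 genes. The Hsp90 co-chaperones CPR6, AHA1 and STI1 had log2 fold changes of 1.49, 1.41 and 1.21. CPR6, a prolyl isomerase, had 1653, 1464 and 1786 PPM in oxidized and 511, 608 and 609 PPM in reduced cells, and AHA1, which stimulates the Hsp90 ATPase, 391, 447 and 359.6 PPM and 154, 113 and 169 PPM.

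Sequestrases and disaggregases, which collect and reopen protein aggregates, moved in the same direction. HSP42, a small heat shock protein of cytosolic aggregates, had 1814, 2099 and 1922 PPM in oxidized and 745, 884 and 783 PPM in reduced cells (log2 fold change 1.27, standard error 0.15, limma adjusted p = 3.1e-09). BTN2, which gathers misfolded proteins, had 1032, 1060.4 and 1138 PPM and 487, 368 and 321 PPM (log2 fold change 1.46, standard error 0.17, limma adjusted p = 3.6e-09), and the disaggregase HSP104 had a log2 fold change of 1.13 (limma adjusted p = 3.9e-08). Summed over the disaggregase and small heat shock list, of which HSP26 made up most, the oxidized libraries held 34959, 33860 and 36112 PPM and the reduced libraries 12772, 13854 and 11512 PPM. In mitochondria, HSP10, the lid of the folding chamber, had 2428, 2092 and 2057 PPM and 869, 1018 and 811 PPM (log2 fold change 1.28, standard error 0.15, limma adjusted p = 1.5e-09), the chamber HSP60 had a log2 fold change of 0.91, MDJ1, a J-protein, 1.16, and the Hsp70 SSC1 0.88. Of 18 chaperone and unfolded protein response genes of the endoplasmic reticulum 1 was called, higher in oxidized cells (5.56%, near the 4.86% of all genes). It was the thiol oxidase ERO1 (log2 fold change 1.00, standard error 0.27, limma adjusted p = 0.0073), whose call was lost without oxidized replicate 3 or reduced replicate 1 (limma adjusted p = 0.079 and 0.051). HSP30, a plasma membrane protein known to restrain the proton pump under stress, had 4681, 4948 and 5394 PPM in oxidized and 1147, 1513 and 1612 PPM in reduced cells (log2 fold change 1.82, standard error 0.14, limma adjusted p = 1.8e-15), and its relative YRO2 795, 1111 and 1002 PPM and 387, 289.8 and 439.5 PPM (log2 fold change 1.36, standard error 0.18, limma adjusted p = 9.4e-08), with no overlap in either. The pump gene PMA1 did not pass (log2 fold change 0.57, standard error 0.25, limma adjusted p = 0.15).

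The heat shock factor Hsf1 binds repeats of the unit GAA in alternating orientation, searched here as GAANNTTC on both strands. It was in 12 of the 21 promoters (57.1%) of the chaperone genes called higher in oxidized cells and in 16.3% of all promoters, against 18.3% of the 219 promoters of all genes called higher in oxidized cells and 13.9% of the 223 of genes called higher in reduced cells. The stretches of CPR6, BTN2 and AHA1 are shown, with matches in capitals, as those with the largest changes among the chaperone genes that hold the element. SSE2, HSP26 and HSP82, whose changes were larger, hold no match in the bases searched.
CPR6, chrXII:573312-573461, minus strand: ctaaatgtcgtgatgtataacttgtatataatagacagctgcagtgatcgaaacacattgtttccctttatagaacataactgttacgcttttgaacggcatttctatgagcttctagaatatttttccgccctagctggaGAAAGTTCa
BTN2, chrVII:772040-772189, plus strand: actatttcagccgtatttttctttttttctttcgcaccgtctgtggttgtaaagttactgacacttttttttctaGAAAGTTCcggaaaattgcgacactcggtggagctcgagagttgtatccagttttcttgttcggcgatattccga
AHA1, chrIV:892468-892617, plus strand: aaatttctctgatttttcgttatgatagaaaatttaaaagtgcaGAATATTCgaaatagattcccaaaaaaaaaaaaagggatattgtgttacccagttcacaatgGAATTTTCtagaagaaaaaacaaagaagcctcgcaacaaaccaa
The stress response element AGGGG, bound by Msn2 and Msn4, was in 43.4% of the promoters of genes higher in oxidized and in 42.2% of those higher in reduced cells, against 30.9% of all, and thus did not separate the directions. TTGGAG, the core bound by Adr1, was in 6 of 14 glyoxylate and gluconeogenesis promoters (42.9%) and in 16.0% of all, and it shares letters with CCAAT read on the other strand. Of the 12 motifs searched, these 5 are plotted.

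**Figure D3:**
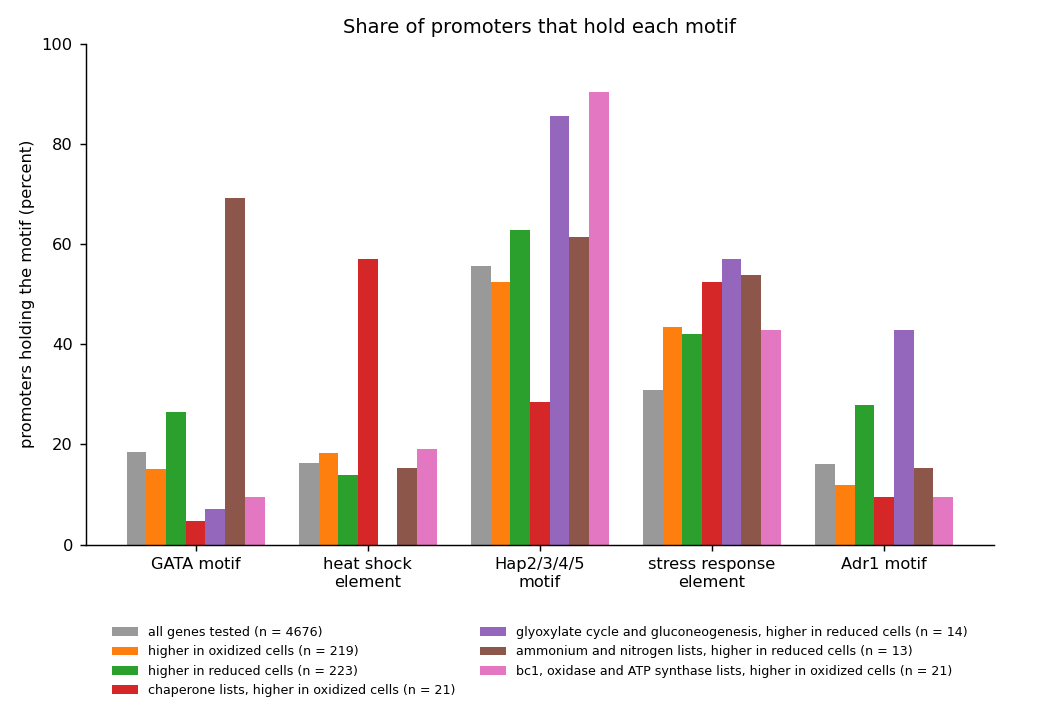
Percent of promoters (500 to 101 bases before the start codon, both strands) that hold each of 5 motifs, for all genes tested and for 6 sets of called genes, with the number of promoters in the key. The GATA motif stands highest in the nitrogen genes (69.2%) and the Hap2/3/4/5 motif in the respiratory genes (90.5%). The heat shock element, searched only as GAANNTTC, stands highest in the chaperone genes (57.1%).

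Genes of high-affinity glucose transport, a hexokinase and invertase were higher in oxidized cells. The high-affinity hexose transporters HXT6 and HXT7 are near identical, so reads may be shared between them. HXT6 had 3586, 3455 and 4309 PPM in oxidized and 943, 947 and 992 PPM in reduced cells (log2 fold change 1.96, standard error 0.14, limma adjusted p = 2.9e-16), and HXT7 1165, 1255 and 1249.7 PPM and 502, 516 and 535 PPM (log2 fold change 1.22, standard error 0.17, limma adjusted p = 8.9e-08). In the other direction, HXT5, the transporter of slow-growing cells, had 460.4, 620.4 and 643 PPM and 1554, 1753 and 1583 PPM (log2 fold change -1.50, standard error 0.19, limma adjusted p = 9.6e-09). HXK1, a hexokinase, had 1967, 2005 and 1880.5 PPM in oxidized and 759.8, 721 and 935 PPM in reduced cells (log2 fold change 1.27, standard error 0.15, limma adjusted p = 2.8e-09), while HXK2 did not pass (log2 fold change 0.41, standard error 0.29, limma adjusted p = 0.46). Of 18 glycolysis transcripts 3 were called, all higher in oxidized cells (16.7%, beside 4.86% of all genes), and this count depended on the libraries. It was 9 without reduced replicate 3, 2 without oxidized replicate 1 or 2 and 1, HXK1, without oxidized replicate 3 or reduced replicate 1 or 2. SUC2, the invertase that splits sucrose, had 244, 195 and 253 PPM and 44.7, 63.6 and 84.5 PPM (log2 fold change 1.72, standard error 0.26, limma adjusted p = 1.1e-06), and MTH1, a regulator of hexose transporter genes, 272, 325 and 401 PPM and 124, 106 and 135 PPM (log2 fold change 1.37, standard error 0.25, limma adjusted p = 5.7e-05). PDC5, a minor pyruvate decarboxylase known to be induced when thiamine is scarce, had 349, 426 and 277 PPM in oxidized and 54.6, 99 and 90.2 PPM in reduced cells (log2 fold change 2.00, standard error 0.25, limma adjusted p = 1.3e-08), and the main form PDC1 did not pass (log2 fold change 0.26, standard error 0.16, limma adjusted p = 0.38). Of 18 thiamine genes 5 (27.8%) were called higher in oxidized cells and 1 (5.56%) in reduced cells, beside 4.86% and 4.75% of all genes. The count in reduced cells was 0 when any of 4 libraries was left out. The pyrimidine synthesis copies THI5, THI11, THI12 and THI13 carried most of the calls higher in oxidized cells, and are near identical. THI12 had 628, 491 and 684 PPM and 139, 156 and 141 PPM, and THI11 635, 599 and 631 PPM and 169, 205 and 147 PPM (log2 fold changes 1.97 and 1.80). Their windows overlap those of AAD14 and AAD10 on the opposite strand.

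Metal genes went both ways. Of 14 zinc and other metal genes 7 were called higher in oxidized cells and 1 in reduced cells, and of 29 iron regulon genes 3 higher in oxidized cells and 6 in reduced cells. The 7 were 4 without oxidized replicate 3 or reduced replicate 2. ZRT1, the high-affinity zinc transporter, had 2309, 2431 and 2558 PPM in oxidized and 1028, 933 and 1555 PPM in reduced cells (log2 fold change 1.08, standard error 0.15, limma adjusted p = 2.7e-07). COT1, which moves zinc and cobalt into the vacuole, had 244, 216 and 183 PPM and 566, 488 and 434 PPM (log2 fold change -1.17, standard error 0.22, limma adjusted p = 9.6e-05). For iron, the siderophore transporter SIT1 had 244, 281 and 289 PPM in oxidized and 983, 1060.3 and 704 PPM in reduced cells (log2 fold change -1.70, standard error 0.19, limma adjusted p = 1.5e-09), and the permease FTR1 216, 368 and 224 PPM and 789.6, 615 and 462 PPM (log2 fold change -1.19, standard error 0.23, limma adjusted p = 0.0001). The cell wall mannoprotein FIT2, which retains siderophores, went the other way with 1535, 1472 and 1444 PPM and 507, 778 and 597 PPM (log2 fold change 1.25, standard error 0.16, limma adjusted p = 3.3e-08). The iron regulon therefore did not move as 1 set. PHO84, the high-affinity phosphate transporter, had 265, 289 and 318 PPM and 104, 120.2 and 124 PPM (log2 fold change 1.25, standard error 0.25, limma adjusted p = 0.00017). It was 1 of 2 calls among 19 phosphate genes, 1 in each direction (5.26% each, near the 4.86% and 4.75% of all genes).

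Redox enzymes are the group nearest to what the sensor reads. Of 15 thioredoxin and peroxiredoxin genes 2 were called in each direction, of 21 glutathione and glutaredoxin genes 1 in each, and of 16 catalase, superoxide dismutase and oxidative stress genes 2 in each, with medians of -0.03, 0.04 and 0.00. These shares were 13.3%, 4.76% and 12.5% in each direction, beside 4.86% and 4.75% of all genes. With a library left out the counts in each direction were 1 or 2, 0 or 1 and 1 or 2, and without reduced replicate 2 no glutathione gene passed. AHP1, a peroxiredoxin, had 3174, 2503 and 2824 PPM in oxidized and 1495, 1647 and 2023 PPM in reduced cells (log2 fold change 0.72, standard error 0.14, limma adjusted p = 0.00017), but its window overlaps by 15 bp that of the abundant CCW12 on the opposite strand. TRX1, a cytosolic thioredoxin, had 307, 310.2 and 395 PPM and 680.3, 509 and 575 PPM (log2 fold change -0.78, standard error 0.21, limma adjusted p = 0.0072), lost without reduced replicate 1 (limma adjusted p = 0.08), and TRX2 did not pass (log2 fold change 0.14, standard error 0.16, limma adjusted p = 0.68). TSA2, an inducible peroxiredoxin, passed (log2 fold change 0.99, standard error 0.28, limma adjusted p = 0.015) but not without oxidized replicate 3 or reduced replicate 1, and the abundant TSA1 did not (log2 fold change 0.27, standard error 0.13, limma adjusted p = 0.22). CTT1, the cytosolic catalase (log2 fold change -0.44, standard error 0.20, limma adjusted p = 0.18), and GRX2, a glutaredoxin (log2 fold change -0.41, standard error 0.22, limma adjusted p = 0.28), did not pass.

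Stationary phase genes went both ways. Of 31 hydrophilin and stationary phase transcripts 7 were called higher in oxidized cells and 11 in reduced cells, a share of calls well above 9.61% but with no common direction (median -0.17). SPI1, a cell wall protein of stationary cells, had 3446, 4025 and 4115 PPM in oxidized and 1137, 1258 and 1313 PPM in reduced cells (log2 fold change 1.63, standard error 0.14, limma adjusted p = 2.2e-13). The hydrophilin GRE1 had 1263, 1457 and 1479.6 PPM and 2811, 3011 and 2648 PPM (log2 fold change -1.01, standard error 0.16, limma adjusted p = 5.4e-06), while its relative SIP18 had 2107, 2041 and 2405 PPM and 3223, 3047 and 1944 PPM and did not pass (log2 fold change -0.29, standard error 0.15, limma adjusted p = 0.24). Here reduced replicate 3 lay below all 3 oxidized libraries and the other reduced libraries lay above them, and without it SIP18 passed (limma adjusted p = 0.0026). Cell wall genes gave 4 calls higher in oxidized cells (13.3%) and 1 in reduced cells (3.33%) of 30, beside 4.86% and 4.75% of all genes. The count in reduced cells was 0 when any of 4 libraries was left out. The count in oxidized cells was then 3 to 6, 6 without reduced replicate 3. The largest were SPI1 and SCW4, a glucanase-like wall protein (log2 fold change 0.96, standard error 0.18, limma adjusted p = 9.2e-05).

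Of 60 tested pairs of paralogs or of isoforms of related function, 4 were called in opposite directions, and both malate dehydrogenase pairs among these share MDH1. This stands beside 12 pairs called in the same direction and 23 with 1 gene called. RGI1 had 2072, 2243 and 1909.9 PPM in oxidized and 879, 756 and 783 PPM in reduced cells (log2 fold change 1.35, standard error 0.15, limma adjusted p = 4.2e-10), opposite to RGI2 above. MDH1, the mitochondrial malate dehydrogenase, had 928, 880.0 and 872 PPM and 377, 587 and 456 PPM (log2 fold change 0.92, standard error 0.18, limma adjusted p = 0.00012), opposite to the cytosolic MDH2 above and to the peroxisomal MDH3, with 621, 699.7 and 755 PPM and 1664, 1795 and 1251 PPM (log2 fold change -1.16, standard error 0.17, limma adjusted p = 4.9e-07). Transcripts for 1 enzyme activity in different compartments were thus called in opposite directions, while each was read in every library of both subpopulations. UBC4 and UBC5, ubiquitin-conjugating enzymes, had log2 fold changes of 0.69 and -0.74 (limma adjusted p = 0.001 and 0.0036). The call of UBC5 was lost without reduced replicate 1 (limma adjusted p = 0.059).

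Few genes of growth and storage passed. Of 86 ribosome biogenesis transcripts, 29 RNA polymerase subunits, 26 methionine and sulfur genes and 18 trehalose and glycogen genes, 0 passed limma's adjusted p (6, 2, 7 and 1 at an unadjusted p under 0.05), and in these lists 10, 3, 5 and 2 transcripts had libraries that did not overlap between the groups, against 26.0% of all genes. Of 137 cytosolic ribosomal protein transcripts 3 were called, all higher in reduced cells, which is 2.19% beside 4.75% of all genes. Of 65 mitochondrial ribosomal protein transcripts 2 were called higher in oxidized cells (3.08%, beside 4.86% of all genes), and 0 without oxidized replicate 1 or 3. RPL41B, which encodes a protein of very short length with a copy RPL41A, had 4011, 3881 and 3448 PPM in oxidized and 9718, 9324 and 7455 PPM in reduced cells (log2 fold change -1.22, standard error 0.13, limma adjusted p = 1.5e-10). Of 14 daughter-specific and cell separation genes 1 was called, higher in oxidized cells (7.14%, beside 4.86% of all genes), and 0 without oxidized replicate 1 or reduced replicate 2. Of 10 histone genes 1 was called, higher in reduced cells, beside 4.75% of all genes.

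**Figure D4:**
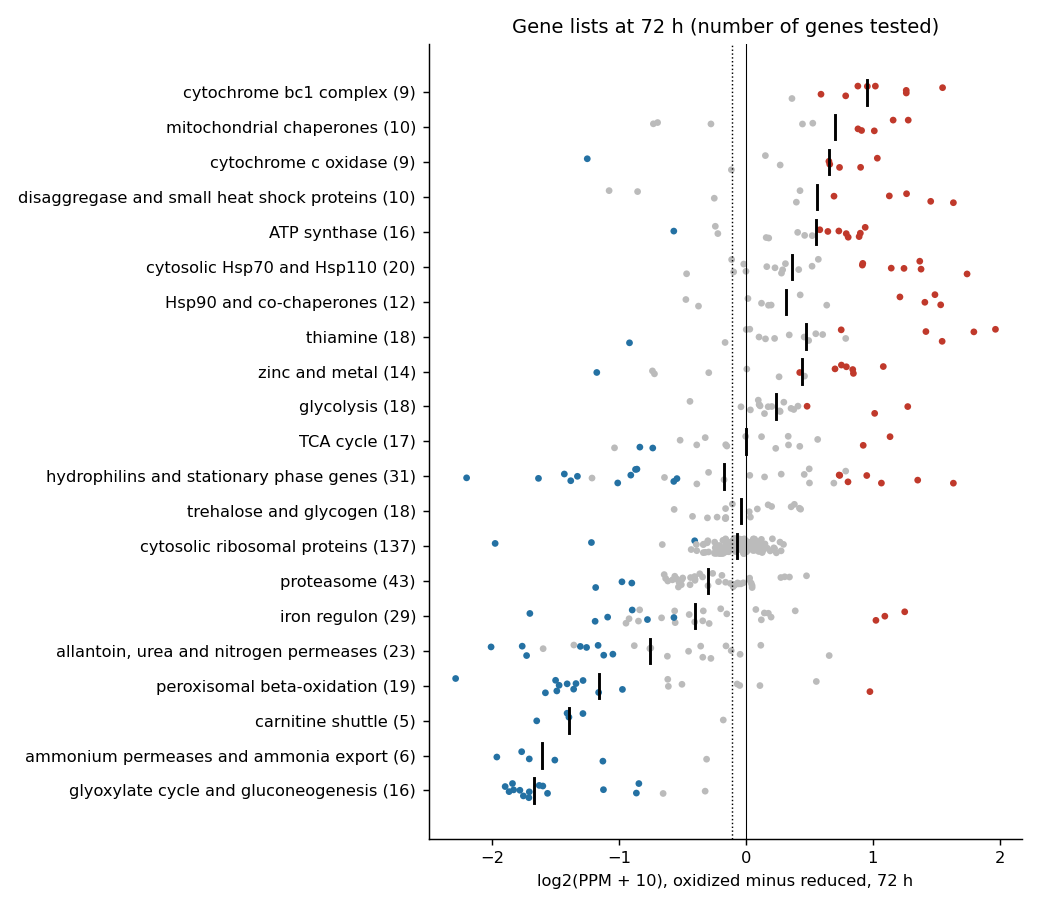
Each point is a gene of 1 of 21 lists, at its oxidized minus reduced difference of log2(PPM + 10) at 72 hr, red where called higher in oxidized, blue where called higher in reduced cells and grey where it did not pass, with a black bar at the median of the list and a dotted line at the median of all genes (-0.11). Lists of carbon and nitrogen use lie to the left, bc1 and chaperone lists to the right, and ribosomal and trehalose lists near 0.

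The difference at 72 hr was itself compared with that at 48 hr in the same fit. It differed for 37 of 4776 transcripts (0.775%), 36 of them with a larger oxidized minus reduced difference at 72 hr and 1, SIP18, with a smaller one, and leaving out 1 library gave 23 (oxidized replicate 1 or 3) to 46. At 48 hr 184 transcripts were called, 130 of which were among the 459 of 72 hr with the same direction. The heat shock genes were prominent among the 37. HSP42 went from -0.29 (log2 fold change) at 48 hr to 1.27 at 72 hr, a difference of 1.56 (standard error 0.21, limma adjusted p = 4.9e-06). BTN2 went from -0.07 to 1.46, a difference of 1.53 (standard error 0.24, limma adjusted p = 0.00016), and SSE2 from 0.17 to 1.74, a difference of 1.57 (standard error 0.30, limma adjusted p = 0.0011). HSP26, already higher at 48 hr, went from 0.74 to 1.63, a difference of 0.89 (standard error 0.16, limma adjusted p = 0.00085). In all, 9 of 52 genes of the 4 chaperone lists passed this test, each with a larger difference at 72 hr. Of the 26 different genes of the glyoxylate, carnitine and ammonium lists 0 passed limma's adjusted p for the difference between ages (0 at an unadjusted p under 0.05). The lists of peroxisomal β-oxidation (19 genes) and of allantoin, urea and nitrogen permeases (23 genes) also had 0, with 3 and 2 at an unadjusted p under 0.05. The 22 of these 26 genes that were called at 72 hr all had the same sign at 48 hr. For ICL1 the log2 fold changes at 48 and 72 hr were -1.83 and -1.78, and for MEP2 -2.02 and -1.96. The bc1 complex had a median of 0.43 at 48 hr and 0.96 at 72 hr, with 0 of 9 transcripts past limma's adjusted p for the difference (5 at an unadjusted p under 0.05). CYC7 did pass, going from 0.49 to 2.28, a difference of 1.79 (standard error 0.36, limma adjusted p = 0.0024). HAP1 went from -0.01 to 1.10, a difference of 1.10 (standard error 0.27, limma adjusted p = 0.025), which was lost without oxidized replicate 1 or 3 or reduced replicate 1.

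**Figure D5:**
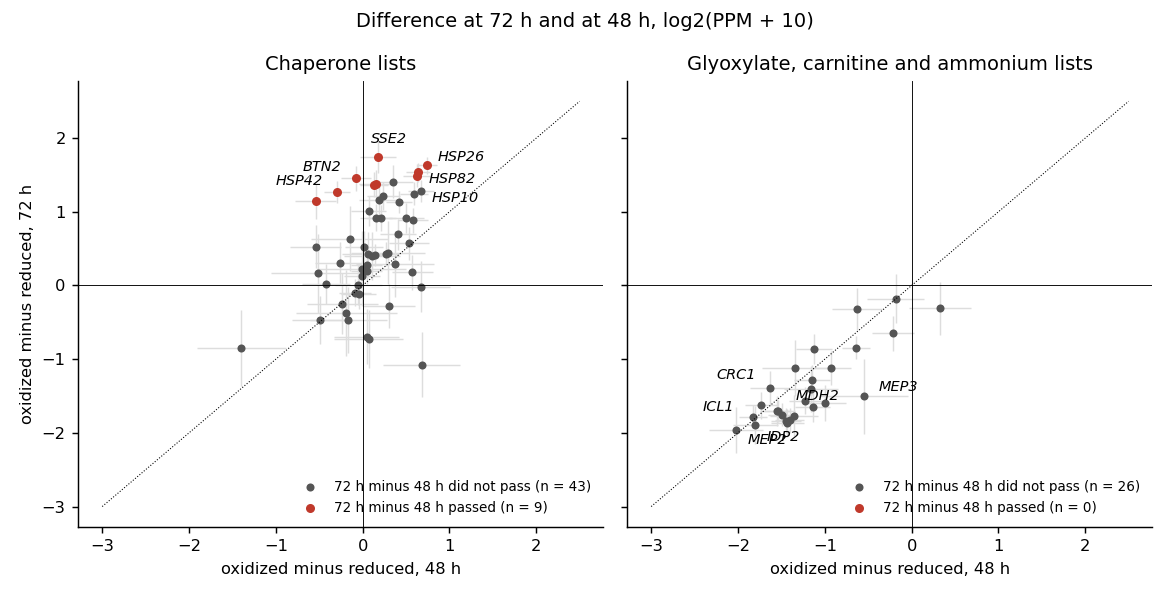
Oxidized minus reduced differences of log2(PPM + 10) at 48 hr (x axis) and 72 hr (y axis), with standard errors as bars and the line of equal differences dotted, for 52 chaperone genes and 26 genes of the glyoxylate, carnitine and ammonium lists. Red marks the 9 chaperone genes whose difference itself differed between the ages, all above the line, and the genes of the other panel scatter around it.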

How the data were processed

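Yeast messenger RNA was read from its 3′ ends in 12 libraries, 3 for each of 4 groups (oxidized and reduced cells at 48 and 72 hr), described as biological replicates. Per the study's methods, the authors aligned reads with bowtie2 at default settings to sacCer3, removed duplicates by molecular identifier, counted those between 350 bp before and 200 bp past each transcript end, and deposited them as PPM, the count scaled to a library total of 1000000, a normalized value treated as RPM. The versions of aligner and annotation and the use of strand were not given in the sources used here. Of 6645 genes kept from the deposited file, 553 had to be split at commas; gene names were matched to the RefSeq annotation of R64 (5928 matched). Every value was a whole multiple of 1 read (tolerance 0.01 reads), but the values are normalized, so limma 3.58.1 in R 4.3.3 was used on log2(PPM + 10) for the 4776 genes whose mean was 20 PPM or more, fitting 4 group means and a trended prior (45.1 prior degrees of freedom). The study itself used a count-based test. P-values were adjusted by Benjamini-Hochberg over the 4776 genes, with a threshold of 0.05. Window overlaps were placed by coding sequence ends, transcript ends not being used here, and are approximate. Python 3.11.15 was used for the other steps, and the fit was tested on simulated data. The genes named by rule (186) are the 15 largest non-overlapping calls in each direction with a mean of 200 PPM or more in the higher group, the leading called members of each list, genes of paralog pairs called in opposite directions, genes the study names, the 5 largest differences between ages in each direction, and all members of lists of up to 8 genes; a further 45 genes outside it were chosen after their values were seen. The members and lists were chosen with earlier results of these data known.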

Additional observations from a re-analysis of the deposited data

Results flagged for a closer look

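For the genes in the following sentences the oxidized minus reduced difference of log2(PPM + 10) at 72 hr differed from that at 48 hr in the same limma fit (adjusted p under 0.05), and each value in brackets is the 72 hr difference minus the 48 hr difference. The chaperones were APJ1 (1.68), a J-protein, SSE2 (1.57), HSP42 (1.56), BTN2 (1.53), FES1 (1.24), SSA4 (1.23), HSP82 (0.90), HSP26 (0.89) and CPR6 (0.86), with the membrane stress protein HSP30 (0.78). CYC7 (1.79) and HAP1 (1.10) belong to respiration and its control, as does NDI1 (1.38), a mitochondrial NADH dehydrogenase. At the metallothionein locus, CUP1-1 (0.83) and CUP1-2 (0.83) were joined by YHR052W-A (1.80) and YHR054W-A (1.86), whose copies are also near identical. The largest differences were those of ZPR1 (2.30), a zinc finger protein that assists an elongation factor, PRP46 (2.25), a splicing factor, YER163C (1.92) and GID8 (1.90), a ubiquitin ligase subunit. In these 4 the estimates had opposite signs, with log2 fold changes at 48 and 72 hr of -0.72 and 1.58 for ZPR1, -1.22 and 1.03 for PRP46, -1.20 and 0.72 for YER163C, and -0.43 and 1.47 for GID8. At 48 hr ZPR1 and GID8 did not pass (limma adjusted p = 0.14 and 0.52), while PRP46 and YER163C did (0.0049 and 0.00066). At 72 hr all 4 passed. The 72 hr call of PRP46 was lost without reduced replicate 1 or 3. That of YER163C (limma adjusted p = 0.045) was lost without any 1 oxidized library or reduced replicate 2 or 3. The windows of PRP46 and GID8 overlap others on the opposite strand by 325 and 263 bp. PIN3 (1.35) and NCA2 (1.54) have windows that overlap by 50 bp on opposite strands. THI12 (1.25) and SPI1 (1.01) also had larger differences at 72 hr, and SIP18 (-0.83) a smaller one.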

How the results depend on the processing

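All 459 calls kept their direction under each alternative in which they were tested, and 237 of them passed in all 12 alternatives counted, which leave aside the filter of at least 50 PPM, where 435 were tested and all 435 passed. Counts of calls were 398 with a pseudocount of 1 PPM, 495 with 50 PPM, 415 with no filter, 465 with a filter of 50 PPM, 447 with median-of-ratios size factors and 518 with the 6 libraries of 72 hr alone. Leaving out 1 library of 72 hr gave 320 to 429 calls, 166 to 222 higher in oxidized cells and 134 to 207 higher in reduced cells, 148 of the latter without reduced replicate 1 and 134 without reduced replicate 2. A further criterion of at least 2-fold left 280 calls, and restricting the genes, as chosen after seeing the data, to the 2518 whose counting window overlaps no other gene left 278 (11.0%), because fewer genes could pass. The difference between ages gave 27 to 42 calls under the other settings and 23 to 46 when 1 library was left out, with 23 without oxidized replicate 1 or 3; the cause was not tested. Opposite paralog pairs numbered 3 or 4 and listed genes called 170 to 216 when 1 library was left out.

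Of 231 genes named, 187 passed, 129 of them under every alternative in which they were tested. Of the 44 that did not pass, 12 changed sign when 1 library was left out, with ranges of log2 fold change of -0.35 to 0.053 for AGP2, -0.061 to 0.34 for PMP1, -0.57 to 0.022 for ATO2, -0.059 to 0.17 for MFA2, -0.45 to 0.44 for AGA2, -0.19 to 0.44 for MF(ALPHA)1, -0.35 to 0.016 for DHH1, -0.0016 to 0.30 for HSP150, -0.36 to 0.17 for SSB1, -0.38 to 0.40 for PRT1, -0.039 to 0.25 for HSC82 and -0.33 to 0.17 for PXA2, which was 0.019 with size factors. Replicate numbers are shared by the groups, but deviations from the group means of same-numbered oxidized and reduced libraries at 72 hr had correlations of -0.003, -0.027 and -0.018. No pairing by number was thus seen. As the deviations of weak transcripts are mostly counting noise, this cannot exclude that same-numbered libraries came from a shared culture. With the replicate number as a block, 450 transcripts were called, 228 higher in oxidized cells and 222 in reduced cells, 36 differed between ages, and 446 of the 459 calls passed. At 72 hr 1 read was worth up to 7.21 PPM, and the median standard error of a log2 fold change over all transcripts was 0.40, which limits what could be detected for weak transcripts.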

Other observations

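Outside the lists, several genes of mitochondria that serve respired carbon sources were higher in reduced cells, unlike the respiratory complexes. OM14, an outer membrane protein, had 928, 1039 and 1038 PPM in oxidized and 3268, 3259 and 2186 PPM in reduced cells (log2 fold change -1.50, standard error 0.16, limma adjusted p = 2e-10). FMP43, a subunit of the pyruvate carrier used on respired substrates, had 391, 454 and 483 PPM and 1157, 1286 and 885 PPM (log2 fold change -1.29, standard error 0.18, limma adjusted p = 3.1e-07), and its window overlaps that of LSC2. SHH3 and SHH4, paralogs of membrane subunits of succinate dehydrogenase, had log2 fold changes of -1.64 and -1.83, and AAC1, a minor ADP/ATP carrier, of -1.17. The external NADH dehydrogenase NDE2 had a log2 fold change of -1.39, whereas the internal NADH dehydrogenase NDI1 had 1.31, with 405, 339 and 637 PPM in oxidized and 164, 254 and 124 PPM in reduced cells. NDI1 and NDE2 thus passed in opposite directions (limma adjusted p = 5.6e-05 and 0.00086). ENA1, a sodium pump, had 62.8, 123 and 218 PPM and 467, 283 and 394 PPM (log2 fold change -1.56, standard error 0.30, limma adjusted p = 0.00012). PAI3, the inhibitor of vacuolar proteinase A, had 516, 584 and 413 PPM and 1629, 1399.6 and 896 PPM (log2 fold change -1.33, standard error 0.19, limma adjusted p = 2.2e-07). These genes were chosen after their values were seen.

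All 8 tested copies of the helicase gene of the subtelomeric Y′ element (YRF1) had negative log2 fold changes (median -0.81), and 3 passed, YRF1-1, YRF1-4 and YRF1-5. The copies are near identical, so that reads may be shared among them and the 8 values are not separate measurements, and each of the 3 calls was lost without reduced replicate 1 (limma adjusted p = 0.073 to 0.12). Of the 51 genes tested within 10 kb of a chromosome end, all 8 YRF1 copies included, 2 were called higher in oxidized cells (3.92%, beside 4.86% of all genes) and 8 in reduced cells (15.7%, beside 4.75%). Without the YRF1 copies these counts were 2 and 5 of 43, the latter 4 or 5 with a library left out.

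The share of genes called rose with level. Among 1589 genes with a mean under 50 PPM at 72 hr, 9 were called higher in oxidized cells and 15 in reduced cells, while among 374 genes above 500 PPM 73 and 67 were called. Of the 459 calls, 246 lay in no list (132 higher in oxidized cells and 114 in reduced cells, of 3556 such genes).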
